A study of Homo sapiens with 4 samples.

Results

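The replication-dependent histone genes encode the H1, H2A, H2B, H3 and H4 proteins that package newly copied DNA. They were studied here in RNA from AMO1, a human plasmacytoma cell line that stands in for multiple myeloma in the laboratory. The members were the protein-coding genes with a current symbol of the form H1-1 to H1-6, or H2AC, H2BC, H3C or H4C with a number, that reached a TPM of 1 or more (transcripts scaled to the same sum in every library, after division by transcript length) in at least 2 of the 4 libraries. This gave 33 members, out of 68 rows of the family and 37247 gene rows in all. By class the members were 1 of 6 H1 genes, 11 of 17 H2A genes, 9 of 18 H2B genes, 6 of 12 H3 genes and 6 of 15 H4 genes.

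The study compared wild-type AMO1 cells kept for 6 h with DMSO, the vehicle, at 0.10%, with wild-type AMO1 cells kept for 6 h with periplocin at 0.2 mM, the concentration in the labels. Periplocin is a plant steroid glycoside that acts on the sodium and potassium pump. Both groups held 2 libraries and shared the line and the culture medium, so all values concern 1 cell line at 1 time and 1 dose. Total RNA was sequenced as paired ends. Whether a group's libraries came from separate cultures is not in the labels, so p-values cover the spread between the libraries alone, which may be technical.

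Transcripts of these genes are made in S phase, when the cell needs histones for new chromatin, under the factor NPAT in a nuclear structure called the histone locus body. They are unusual in that their 3′ end is normally a short stem-loop and not a poly(A) tail. The protein SLBP binds that stem-loop, takes part in the cleavage that forms the 3′ end, and stays with the mRNA during translation. When DNA synthesis stops, the mRNAs are marked with uridines and degraded rapidly. Some of these genes are known to yield polyadenylated transcripts as well. The sources used here do not give whether the libraries were made from polyadenylated RNA or after removal of ribosomal RNA, and its part in the levels below was not tested.

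The stem-loops of 4 members with this element in their transcripts are shown because they are the feature that defines the family. The sequences were read from GENCODE 29 transcripts, 5′ to 3′, written as DNA, with the stem-loop in capitals and 7 bases on each side.
H2AC19: ctcaaaaGGCTCTTTTCAGAGCCacccacg
H2BC5: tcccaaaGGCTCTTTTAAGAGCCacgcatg
H4C9: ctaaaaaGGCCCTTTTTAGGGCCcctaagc
H4C16: tccaaaaGGCCCTTTTCAGGGCCcccaaac
The histone stem-loop, searched on the transcript strand, was found in annotated transcripts of 16 of the 33 members, and in those of 11 of 58608 genes outside the family (0.0188%). The 16 bases of the H2AC19 element recurred in 7 members, those of H2BC5 in 3, those of H4C9 in 3 and those of H4C16 in 3. In 16 of the 17 members without it the gene model ended with the coding sequence, so that the stem-loop lay outside the model. H2BC11 had longer models without it. The most abundant members, H2BC12 and H1-2, had coding-only models, of 381 and 642 bases. Of the 16 members with a stem-loop in the model, 11 had a transcript that ran more than 60 bases past it, and in 5 every such transcript ended within 60 bases. TPM divides by the length of the model used, so levels between members also depend on these models.

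The level of a few members stood far above the rest. H2BC12, an H2B gene, had the highest mean, 123 TPM over the 4 libraries, and the linker histone gene H1-2 was next at 85.9 TPM. H2AC19 (23.5 TPM), H2AC20 (15.7 TPM), H2BC11 (14.9 TPM), H2AC18 (11.5 TPM), H4C9 (11.4 TPM) and H4C11 (10.3 TPM) completed the 8 members above 10 TPM. A further 5 lay between 5 and 10 TPM and 20 lay under 5 TPM, of which 14 were under 2 TPM. H2BC12 and H1-2 exceeded all other members in every library, and the ranges of all other neighbours in the order overlapped. H2BC12 and H1-2 together held 51.7% and 51.2% of the members' summed TPM in the DMSO libraries, and 61.0% and 57.2% in the periplocin libraries.

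**Figure D1:**
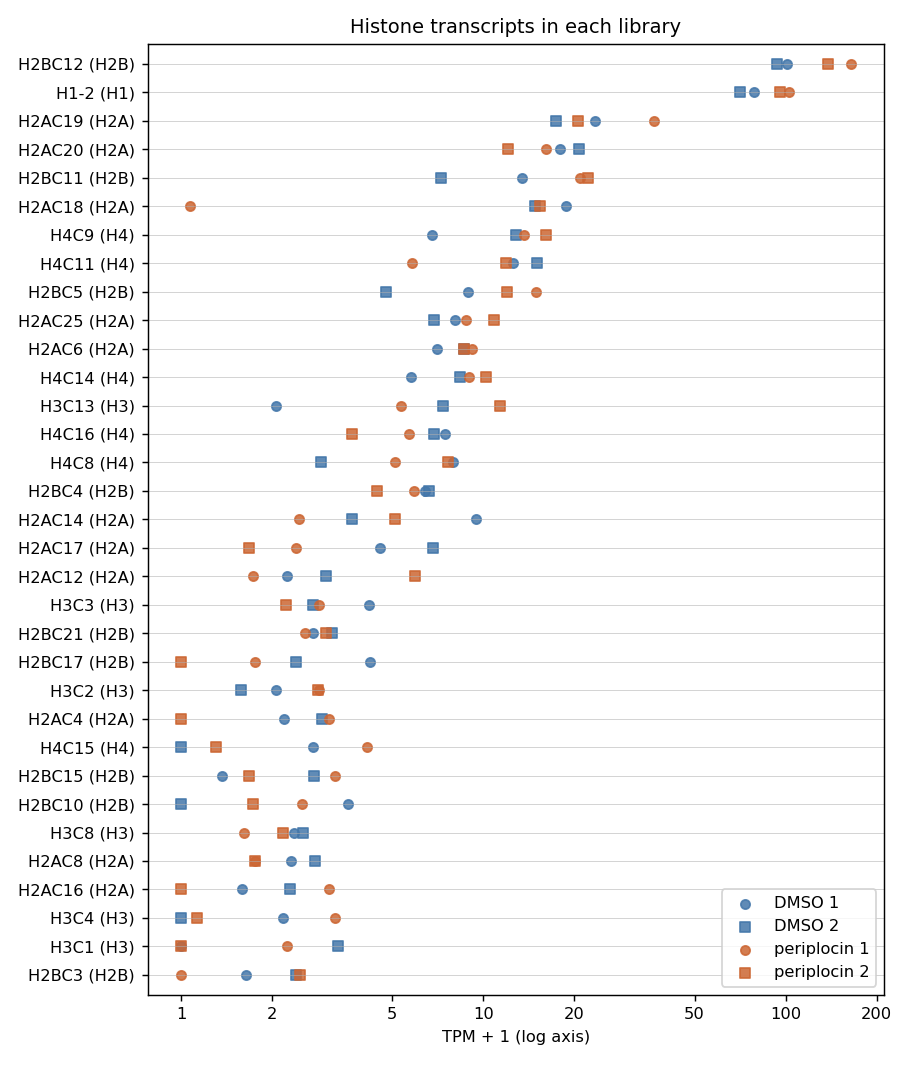
Level of each of the 33 members in each library, as TPM plus 1 on a log axis, ordered by mean level, with DMSO in blue and periplocin in orange. H2BC12 and H1-2 stand apart at 69.5 to 163 TPM, and the values of a gene in its 4 libraries scatter more widely below about 10 TPM.

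Of the 35 rows of the family that were not members, 11 were listed at 0 in all libraries and 24 had low values, the highest being 3.54 TPM for H4C1 in periplocin library 2. In all, 12 of them reached 1 TPM in a single library. Nearest to the limit, the second-highest value was 1.18 TPM for H3C4 and 1.24 TPM for H3C1 among members, and 0.997 TPM for H2AC15 and 0.924 TPM for H4C3 among non-members. Only 1 of the 6 H1 genes, H1-2, was a member, and H1-1 and H1-6 were listed at 0. Among H4 genes 6 of 15 rows were listed at 0. Across the members 7 had a library at 0, and an exact 0 can be a failed estimate.

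Low values of genes with the same model length fell on steps. Among 18 genes of the family with models of 381, 393 or 411 bases, 39 of 46 values of up to 20 steps lay within 0.02 of a whole number of steps, where the step was the largest that divided most values of a library and the values that set it were included. The steps were 0.577 to 1.40 TPM. H2AC17, for example, stood at 6 and 9 steps in DMSO libraries 1 and 2 and at 2 steps in periplocin library 1, with 0.681 TPM in periplocin library 2, where too few values were above 0 to find a step. The sources used here do not give what a step stands for, and TPM keeps no depth.

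Summed over members, the family stood at 330 ± 18.7 TPM with DMSO and at 420 ± 20.7 TPM with periplocin (SD, n = 2). The sums were 343 and 317 TPM in the DMSO libraries and 435 and 406 TPM in the periplocin libraries, without overlap. The H2B sum stood at 134 and 115 TPM against 208 and 178 TPM, and H1-2, the only H1 member, at 77.6 and 69.5 TPM against 102 and 94.9 TPM. The H2A sum was 86.6 and 78.9 TPM against 75.5 and 73.1 TPM, lower in both periplocin libraries as deposited, and 82.6 and 74.0 TPM against 79.4 and 76.2 TPM after rescaling by median-of-ratios size factors, where the groups overlapped. The H3 sum (7.85 and 12.5 TPM against 12.2 and 14.7 TPM) and the H4 sum (37.3 and 41.0 TPM against 37.3 and 44.9 TPM) overlapped between groups as deposited. After the same rescaling neither overlapped, with H3 at 7.49 and 11.7 TPM against 12.8 and 15.3 TPM and H4 at 35.6 and 38.4 TPM against 39.2 and 46.8 TPM, so whether the H2A, H3 and H4 groups overlapped depended on the scaling. With H2BC12 and H1-2 left out, the other 31 members summed to 166 and 155 TPM with DMSO and to 170 and 173 TPM with periplocin, a difference of 11.2 TPM. After rescaling these sums were 158 and 145 TPM against 178 and 181 TPM, a difference of 27.8 TPM. No test was made on the sums, and an exact permutation test of 2 against 2 libraries cannot go below p = 0.333.

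**Figure D2:**
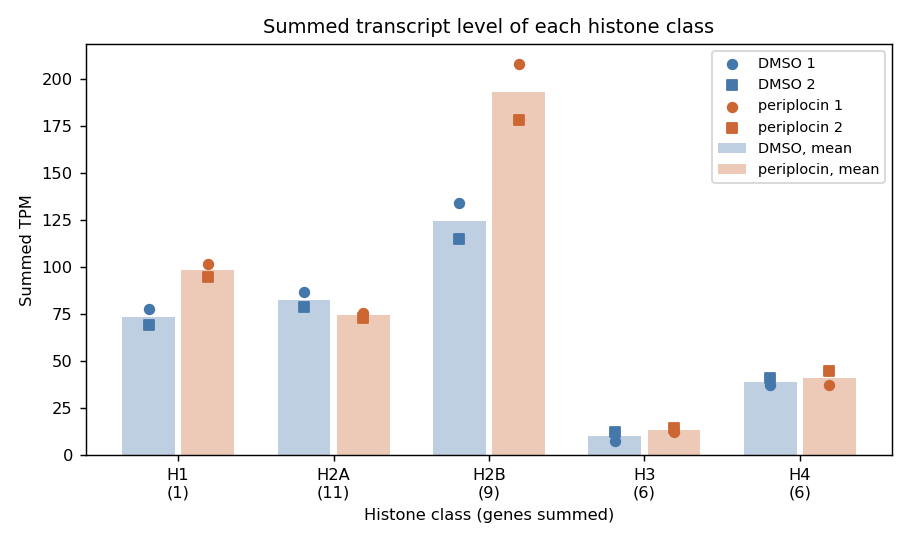
Summed TPM as deposited of the members of each histone class in each library (points) and the mean of each group (bars from 0); the number of genes summed is under each class. The H2B points and the H1 points of periplocin lie above those of DMSO, the H2A points below, and the H3 and H4 points overlap; after rescaling by size factors the H2A points overlap and the H3 and H4 points do not.

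Each gene was tested with limma on log2(TPM + 1), in 1 fit over all 12947 genes that passed the same limit of 1 TPM in 2 libraries, with Benjamini-Hochberg adjustment over all of them and a threshold of 0.05. Of the 33 members 3 were called higher with periplocin (9.09%) and 1 lower (3.03%), where 10.4% of all tested genes were called higher and 18.9% lower. Both periplocin libraries lay above both DMSO libraries in 8 members and below them in 8 members (24.2% each), where 25.4% and 43.4% of all tested genes did so. After rescaling by size factors the members' counts were 9 and 7. The shares of all tested genes at that scaling were not computed, so these counts have no background beside them. Of the 8 that lay below, H2AC8 and H2BC17 reached 1 TPM in the DMSO libraries alone, so the limit itself made them lie below. The median log2 fold change of the members was 0.14, with 17 members above 0 and 16 below, and that of all tested genes was -0.14. After rescaling by size factors these medians were 0.20 and -0.01. The sign of the members' median turned with the libraries used: it was -0.06 without DMSO library 1, -0.06 without DMSO library 2, -0.12 without periplocin library 1 and 0.23 without periplocin library 2. As deposited, the share called lower and the share lying below were smaller than the background, and the share called higher was close to it. With size factors 4 members were called higher and 1 lower, against 2012 and 1745 of all tested genes. The background was not matched for level. The 20 members under 5 TPM had a median standard error of 0.50, and the 8 at 10 TPM or more had 0.30. The part of level in these shares was not tested. With 33 members these counts were not tested against the background. RNA was taken from all cells together, so a different number of cells in S phase and a different amount of histone RNA per such cell cannot be told apart.

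H2BC12 (HIST1H2BK; chromosome 6, 27146418 to 27146798 on GRCh38, minus strand) rose from 99.8 and 92.7 TPM with DMSO to 163 and 137 TPM with periplocin. Both periplocin libraries were above both DMSO libraries. The log2 fold change was 0.63 (standard error 0.11, limma adjusted p = 0.0116). H1-2 (HIST1H1C; chromosome 6, 26055787 to 26056428, minus strand), a linker histone gene whose product binds the DNA between nucleosomes, rose from 77.6 and 69.5 TPM to 102 and 94.9 TPM, again without overlap. Its log2 fold change was 0.42 (standard error 0.10, limma adjusted p = 0.0282). H2BC11 (HIST1H2BJ; chromosome 6, 27125897 to 27132750, minus strand), another H2B gene, rose from 12.4 and 6.25 TPM to 19.8 and 21.3 TPM, with the DMSO libraries further apart than the periplocin libraries. Its log2 fold change was 1.13 (standard error 0.30, limma adjusted p = 0.0365), and 0.68 without DMSO library 2.

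H2AC17 (HIST1H2AM; chromosome 6, 27892757 to 27893149, minus strand), an H2A gene, fell from 3.56 and 5.81 TPM to 1.40 and 0.681 TPM. All 4 values were low, and both periplocin libraries were below both DMSO libraries. The log2 fold change was -1.47 (standard error 0.33, limma adjusted p = 0.0238). The annotated span of H3C12, an H3 gene on the same strand, covers 350 bases of H2AC17. The transcript models of H3C12 are 411 and 522 bases long, shorter than its span. Whether its exons reach those bases, and so whether reads could be assigned to either gene, was not checked. H3C12 was not a member and stood at 0.530 and 2.88 TPM with DMSO and at 0 and 0.610 TPM with periplocin.

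These 4 calls rested on few libraries. Without DMSO library 1, or without DMSO library 2, no gene in the whole table passed (3925 and 4156 genes, and 6 and 8 members, had an unadjusted p under 0.05 in limma). Without periplocin library 1 none of the 4 passed, at adjusted p = 0.0539 for H2BC12, 0.122 for H1-2, 0.117 for H2BC11 and 0.0518 for H2AC17. Without periplocin library 2 H2BC12 passed (log2 fold change 0.76, limma adjusted p = 0.0343), and H1-2 (0.0826), H2BC11 (0.142) and H2AC17 (0.0963) did not. With no filter on low values none of the 4 passed (limma adjusted p = 0.0533 to 0.135), without the intensity trend in the prior variance H2AC17 alone did, and with quantile normalization H2AC17 did not (0.0503).

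**Figure D3:**
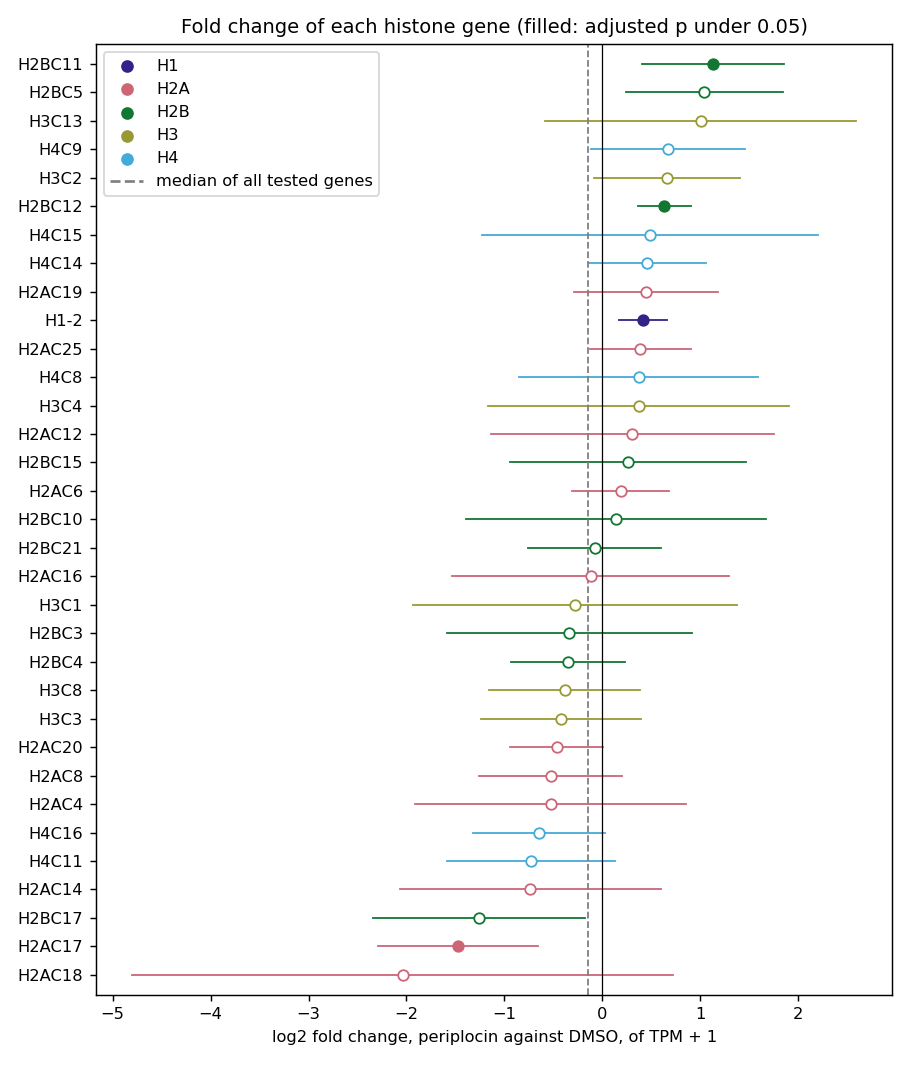
Fold change of each member on the log2(TPM + 1) scale with its 95% interval from limma (lines), coloured by class; filled points passed at an adjusted p under 0.05 and the dashed line is the median of all tested genes, -0.14. The points run from -2.04 (H2AC18) to 1.13 (H2BC11), and 3 filled points lie above 0 and 1 below.

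Among the other H2B genes, H2BC5 stood at 7.92 and 3.75 TPM with DMSO and at 13.9 and 11.0 TPM with periplocin, without overlap. Its log2 fold change of 1.04 did not pass (limma adjusted p = 0.0595) and did pass after rescaling by size factors (0.0458) or by quantiles (0.0419). H2BC17, a member through its DMSO libraries alone, stood at 3.22 and 1.40 TPM against 0.757 and 0 TPM, a log2 fold change of -1.26 (limma adjusted p = 0.0789). H2BC4 was at 5.44 and 5.63 TPM against 4.89 and 3.46 TPM (log2 fold change -0.35). Of the 9 H2B genes, both periplocin libraries thus lay above both DMSO libraries in 3 (H2BC12, H2BC11 and H2BC5) and below them in H2BC17 and H2BC4. Over all tested genes the shares were 25.4% above and 43.4% below, and these counts were not tested against them. H2BC21, a gene with 1729 bases of annotated transcript after its stem-loop, stood at 1.73 and 2.16 TPM against 1.58 and 2.01 TPM, with a log2 fold change of -0.08 as deposited, 0.02 with size factors, and a 95% interval of -0.75 to 0.60. H2BC10, H2BC15 and H2BC3 had log2 fold changes of 0.14, 0.26 and -0.34 at mean levels of 1.21, 1.26 and 0.879 TPM, with overlapping groups.

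Of the 11 H2A genes, 7 had a negative and 4 a positive log2 fold change, with a median of -0.46. H2AC20 stood at 17.0 and 19.7 TPM with DMSO and at 15.2 and 11.1 TPM with periplocin. Its groups did not overlap, but the log2 fold change of -0.46 did not pass (limma adjusted p = 0.123, 95% interval -0.94 to 0.01). H2AC14 stood at 8.44 and 2.69 TPM against 1.45 and 4.11 TPM (log2 fold change -0.74), with overlap. H2AC25 stood at 7.08 and 5.88 TPM against 7.77 and 9.89 TPM, without overlap (log2 fold change 0.39, limma adjusted p = 0.210). H2AC6 was at 6.05 and 7.65 TPM against 8.19 and 7.63 TPM (log2 fold change 0.19). H2AC8, also a member through its DMSO libraries alone, was lower in both periplocin libraries (1.32 and 1.78 TPM against 0.763 and 0.762 TPM, log2 fold change -0.53, limma adjusted p = 0.227), and H2AC4, H2AC12 and H2AC16, each under 5 TPM in every library, had log2 fold changes of -0.53, 0.31 and -0.12 with overlapping groups.

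H2AC18 and H2AC19 lie close together on chromosome 1 and have the same coding sequence, base for base over 390 bases, so reads cannot be placed between them in the coding part. H2AC18 stood at 17.7 and 13.8 TPM with DMSO, and at 0.0675 TPM in periplocin library 1 and 14.4 TPM in periplocin library 2. H2AC19 stood at 22.4 and 16.4 TPM with DMSO and at 35.8 and 19.6 TPM with periplocin. In periplocin library 1, where H2AC18 was nearly absent, H2AC19 had its highest value. The summed level was 40.2 and 30.1 TPM with DMSO and 35.9 and 33.9 TPM with periplocin, with overlap, while H2AC18 alone gave the most negative log2 fold change of any member, -2.04 (standard error 1.13, limma adjusted p = 0.218). Without periplocin library 2 the H2AC18 value passed as lower (log2 fold change -3.96, limma adjusted p = 0.0295), and without periplocin library 1 its log2 fold change was -0.11 (limma adjusted p = 0.750).

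The 6 H3 genes were all low, and none passed. H3C13 had the highest mean and stood at 1.06 and 6.34 TPM with DMSO and at 4.36 and 10.4 TPM with periplocin, a log2 fold change of 1.00 with overlap between groups (limma adjusted p = 0.282). Without DMSO library 1 it was 0.087, and without DMSO library 2 it was 1.92; neither passed (limma adjusted p = 0.925 and 0.133). H3C2 stood at 1.06 and 0.577 TPM against 1.87 and 1.83 TPM, without overlap (log2 fold change 0.66, limma adjusted p = 0.152). H3C3 stood at 3.18 and 1.73 TPM against 1.87 and 1.22 TPM (log2 fold change -0.42). H3C8 was lower in both periplocin libraries (1.36 and 1.53 TPM against 0.617 and 1.18 TPM, log2 fold change -0.38). H3C4 (0.37) and H3C1 (-0.28) had libraries at 0, and all 411 bases of H3C4 lie within another gene's span on the same strand. The 95% interval of H3C13 ran from -0.59 to 2.59, so changes of either sign were within it.

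The 6 H4 genes encode the most conserved histone, and none of them passed. H4C9 stood at 5.74 and 11.9 TPM with DMSO and at 12.6 and 15.2 TPM with periplocin, without overlap (log2 fold change 0.67, limma adjusted p = 0.163). H4C11 stood at 11.6 and 14.0 TPM against 4.80 and 10.9 TPM, lower in both periplocin libraries as deposited but with overlap after rescaling by size factors (log2 fold change -0.73, limma adjusted p = 0.167). Without periplocin library 2 the log2 fold change was -1.24 (limma adjusted p = 0.0434), and without periplocin library 1 it was -0.21 (limma adjusted p = 0.540). H4C11 has the same coding sequence as H4C12, which was listed at 0. H4C16, the only member on chromosome 12, stood at 6.45 and 5.86 TPM against 4.68 and 2.68 TPM, also without overlap (log2 fold change -0.64, limma adjusted p = 0.130). H4C8 was at 6.97 and 1.91 TPM against 4.09 and 6.66 TPM (log2 fold change 0.37). H4C14 and H4C15 share 1 coding sequence: H4C14 stood at 4.78 and 7.36 TPM against 7.94 and 9.25 TPM (log2 fold change 0.46), and H4C15 at 1.74 and 0.000582 TPM against 3.12 and 0.304 TPM. Their sum was 6.52 and 7.36 TPM with DMSO and 11.1 and 9.55 TPM with periplocin, without overlap.

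The other members that were compared were less alike in coding sequence. H2AC20 and the only H1 member were not compared, so their likeness to other genes is not known. The closest case was H3C13 with H3C14, which was not a member, at 12 differences in 408 bases (97.1% identical). Among the H2B rows of the family, the coding sequence nearest to that of H2BC12 was that of H2BC6, which was not a member. They had 23 differences in 378 bases (93.9% identical). Genes outside the family's symbols, such as H2BC12L, were not compared. H2BC11 was nearest to H2BC12, with 30 differences in 378 bases (92.1%). Besides identical coding sequences, 7 of the 33 members overlapped another annotated gene, among them H2AC17 with H3C12, H2AC16 with H2BC15, and H4C14 with H3C14 on the opposite strand. All 411 bases of H3C4 lay within the span of AL031777.3, a protein-coding gene on the same strand. AL031777.3 stood at 0.942 and 0.646 TPM with DMSO and at 1.45 and 1.10 TPM with periplocin. These overlaps are of whole gene spans, introns included, and whether exons are shared was not checked. Values of these genes may therefore be uncertain, and the sources used here do not give whether counting used strand.

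The members lie in clusters, and fold changes were set beside their place. On chromosome 6 the family forms 3 groups of genes, from 25.7 to 26.3 Mb (14 members), near 27.1 Mb (4 members) and from 27.8 to 27.9 Mb (6 members). Chromosome 1 holds 7 members near 149.8 Mb and 1 near 228.5 Mb, and chromosome 12 holds 1. The 4 members near 27.1 Mb, H2BC11, H4C9, H2BC12 and H2AC12, all had positive log2 fold changes (median 0.65), and both periplocin libraries lay above both DMSO libraries in 3 of them. Of the 6 members from 27.8 to 27.9 Mb, 5 had negative log2 fold changes (median -0.73), and both periplocin libraries lay below both DMSO libraries in H2AC17, H2BC17 and H4C11; H2BC17 was a member through DMSO alone, and H4C11 overlapped after rescaling. The 14 members of the first group were split evenly, 7 and 7 (median -0.07). Over all tested genes both periplocin libraries lay above both DMSO libraries in 25.4% and below them in 43.4%, and the median log2 fold change was -0.14. The groups were set beside each other after the values were known and the difference was not tested. H2AC12 turned negative (-0.59) without periplocin library 2.

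**Figure D4:**
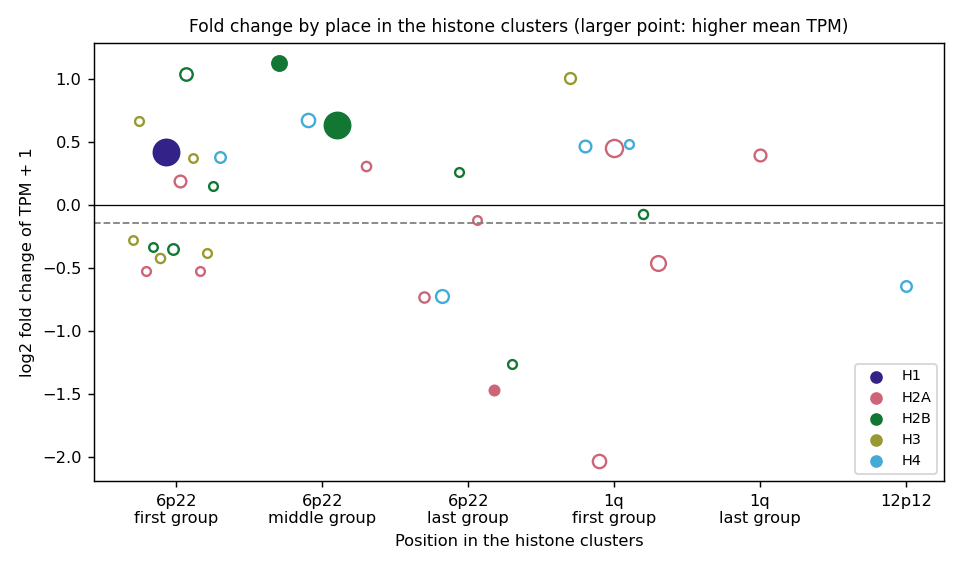
Log2 fold change of each member by its place in the histone clusters of chromosomes 6, 1 and 12, in order along the chromosome within each group, with point area growing with mean TPM, colour for class and filled points for adjusted p under 0.05. The 4 points of the middle group of 6p22 lie above 0, and 5 of the 6 points of the last group lie below it.

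Many H2A and H2B genes start back to back from a shared stretch of DNA. With at most 500 bases between the annotated gene models, 11 such pairs were found in the family. H2AC17 and H2BC17 lie 313 bases apart, and both were lower in both periplocin libraries. H2BC17 was a member through its DMSO libraries alone, so the limit itself made it lie below. H2AC25 and H2BC26 lie 233 bases apart and separated in opposite directions. H2AC25 was higher in both periplocin libraries. H2BC26, not a member, stood at 0.630 and 0.626 TPM with DMSO and at 0.182 and 0.234 TPM with periplocin. H2BC12 and H2AC12 lie 330 bases apart, and H2AC12 stood at 1.24 and 2.01 TPM with DMSO and at 0.727 and 4.96 TPM with periplocin, far below its neighbour. H2BC11 and H2AC11 lie 291 bases apart, and H2AC11, not a member, stood at 0.717 and 0.853 TPM against 0.762 and 0.832 TPM. H2BC4 (lower in both periplocin libraries) and H2AC6 (overlapping groups) lie 218 bases apart, and H2BC21 (overlapping groups) and H2AC20 (lower in both) lie 322 bases apart.

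Promoters of the 4 called genes are shown, since 2 of the 3 that rose are H2B genes and H2B promoters are known for an octamer element that the factor POU2F1 (OCT1) binds. Each is the 200 bases before the RefSeq start (GRCh38.p14), 5′ to 3′ on the gene's strand, with capitals for the octamer (ATTTGCAT or ATGCAAAT), CCAAT or ATTGG, and TATAA or TTATA.
H2BC12, chr6:27146859-27147058, minus strand: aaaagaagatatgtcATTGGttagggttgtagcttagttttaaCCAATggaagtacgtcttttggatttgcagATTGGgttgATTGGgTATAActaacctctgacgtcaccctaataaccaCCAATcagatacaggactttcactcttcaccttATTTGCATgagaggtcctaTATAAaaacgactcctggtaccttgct
H2BC11, chr6:27132796-27132995, minus strand: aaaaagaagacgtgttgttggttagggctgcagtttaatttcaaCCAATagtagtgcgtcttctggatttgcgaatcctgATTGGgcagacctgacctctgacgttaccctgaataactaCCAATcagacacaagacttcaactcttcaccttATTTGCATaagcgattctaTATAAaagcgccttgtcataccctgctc
H1-2, chr6:26056471-26056670, minus strand: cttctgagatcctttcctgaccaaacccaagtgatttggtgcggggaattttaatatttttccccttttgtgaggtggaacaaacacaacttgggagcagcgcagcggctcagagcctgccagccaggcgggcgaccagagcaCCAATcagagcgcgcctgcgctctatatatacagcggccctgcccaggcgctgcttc
H2AC17, chr6:27893186-27893385, minus strand: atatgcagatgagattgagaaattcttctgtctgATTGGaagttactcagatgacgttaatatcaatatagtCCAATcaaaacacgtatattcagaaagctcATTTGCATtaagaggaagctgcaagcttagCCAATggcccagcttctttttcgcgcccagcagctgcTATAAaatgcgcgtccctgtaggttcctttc
The octamer began at -46 in H2BC12 and at -47 in H2BC11, followed by TATAA at -27 and -28, counted from the RefSeq start. In H2AC17 the octamer began at -98 and TATAA at -31. H1-2 held a single CCAAT at -57 and neither of the others.

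Of the 33 members 32 had a promoter in the RefSeq table, and H2AC12 is named only. With both strands searched, the octamer was found in 13 of 32 members (40.6%), against 1.62% of the promoters of 27305 genes. It was found in 7 of 9 H2B, 5 of 10 H2A, 1 of 6 H3 and 0 of 6 H4 genes. CCAAT was found in 27 of 32 members (84.4%), against 32.7% of all, with 1 of 6 H4 genes holding it, and TATAA in 25 of 32 (78.1%), against 18.5%. H2BC12 and H2BC11, called higher, held the octamer letters, as did H2AC17, called lower. H2BC5, at a log2 fold change of 1.04, lacked them, and H2BC17, at a negative fold change, held them. Neither H2BC5 nor H2BC17 was called, and H2BC17 was a member through its DMSO libraries alone. Whether the letters go with the fold changes was not tested. In the promoters shown no match overlapped another. A match is a description of these letters only.

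The genes that make, process and remove these mRNAs were listed apart. Over all 12947 tested genes 10.4% passed as higher and 18.9% as lower, and with size factors 2012 and 1745 genes did so. The counts of this list and of those that follow were not tested against these. Of 25 tested genes of histone mRNA synthesis and 3′ processing, 5 passed as higher and 3 as lower (with size factors 6 and 1), with a median log2 fold change of 0.02. The regulator NPAT rose from 15.3 and 20.6 TPM to 26.9 and 31.0 TPM (log2 fold change 0.67, limma adjusted p = 0.0375). SLBP, the stem-loop binding protein, rose from 60.7 and 74.0 TPM to 89.9 and 93.5 TPM (0.45, limma adjusted p = 0.0383). Of the factors in this list that bind histone promoters, 3 rose: the CCAAT-binding subunit NFYA from 15.1 and 19.8 TPM to 46.6 and 48.9 TPM (1.41), the octamer factor POU2F1 from 6.67 and 6.76 TPM to 14.5 and 15.5 TPM (1.05), and YY1 from 49.9 and 54.5 TPM to 90.3 and 104 TPM (0.88). The other CCAAT-binding subunits, NFYB (-0.19, limma adjusted p = 0.481) and NFYC (0.23, 0.218), and the H4 promoter factor HINFP (0.32, 0.247) did not pass. CPSF3, the nuclease that cuts histone pre-mRNA, fell from 232 and 259 TPM to 114 and 117 TPM (-1.08, limma adjusted p = 0.00326). LSM10, a subunit of the U7 particle that directs the cut, fell from 52.5 and 40.9 TPM to 33.0 and 28.7 TPM (-0.58), and the cleavage factor CSTF2 from 27.9 and 27.0 TPM to 17.0 and 19.8 TPM (-0.56). Neither LSM10 nor CSTF2 passed with size factors (limma adjusted p = 0.0949 and 0.0659). CASP8AP2, a component of the histone locus body, stood at 6.59 and 7.91 TPM against 11.0 and 10.3 TPM and did not pass (0.50, limma adjusted p = 0.0897; 0.0469 with size factors).

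Of 21 tested genes of histone mRNA decay 8 passed as higher and 1 as lower (with size factors 9 and 1), with a median log2 fold change of 0.20. The nuclease XRN1 rose from 8.16 and 9.07 TPM to 16.8 and 19.9 TPM (1.00, limma adjusted p = 0.0108). The decapping factor DCP1A (0.81), the uridylyltransferases TUT7 (0.78) and TUT4 (0.58), the poly(A) polymerase MTPAP (0.69) and UPF2 (0.63) rose, as did SLBP, which is in both lists. LSM2, a subunit of the LSM ring that binds oligouridylated ends, fell from 60.8 and 64.1 TPM to 36.3 and 42.0 TPM (-0.66, limma adjusted p = 0.0118). ERI1, the nuclease that trims the stem-loop end, stood at 9.95 and 12.7 TPM against 12.5 and 11.8 TPM (0.11, 95% interval -0.34 to 0.55). The helicase UPF1 stood at 85.7 and 78.1 TPM against 77.7 and 76.7 TPM (-0.08, and 0.06 with size factors).

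Of 30 tested chaperones and carriers of histones 8 passed as higher and 2 as lower (with size factors 9 and 1). NASP, which holds soluble H3 and H4, rose from 153 and 142 TPM to 237 and 246 TPM (log2 fold change 0.71, limma adjusted p = 0.00448). ATRX (1.12), HJURP (0.62), SPTY2D1 (0.60), DNAJC9 (0.50) and CHAF1A, the large subunit of the assembly factor CAF-1 (0.39), rose. IPO4, the importin that carries H3 and H4 into the nucleus, fell from 80.7 and 98.1 TPM to 32.3 and 29.1 TPM (-1.51, limma adjusted p = 0.00361). ASF1A fell from 31.9 and 33.5 TPM to 23.2 and 21.0 TPM (-0.55), though not with size factors (limma adjusted p = 0.0553).

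Variant histones, most of which are made throughout the cell cycle from polyadenylated mRNAs, were listed for comparison. Of 9 tested, 5 passed as higher and 1 as lower (with size factors 5 and 0), with a median of 0.30. H2AX, an H2A variant of DNA repair that is transcribed both with a stem-loop and with a poly(A) tail, rose from 278 and 278 TPM to 515 and 466 TPM (0.82, limma adjusted p = 0.00388). The linker variant H1-10 rose from 157 and 142 TPM to 321 and 272 TPM (0.98, limma adjusted p = 0.00422). H2AZ2 (0.42), H3-3A (0.33) and H2AZ1 (0.30) rose, and MACROH2A1 fell (-0.29), though not with size factors (limma adjusted p = 0.234). In every library the TPM of H2AX was above that of H2BC12, the highest member.

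Of 47 tested genes of DNA replication and S phase 15 passed as higher and 6 as lower (with size factors 18 and 3), with a median of 0.10. PCNA, the sliding clamp, rose from 418 and 447 TPM to 781 and 804 TPM (log2 fold change 0.87, limma adjusted p = 0.00305). UHRF1 (1.27), CDC25A (0.89), RFC1 (0.76), POLE (0.72) and cyclin E1, CCNE1 (0.72), rose. The primase subunit PRIM1 fell from 28.9 and 38.1 TPM to 10.8 and 11.1 TPM (-1.52, limma adjusted p = 0.00448), as did GINS4 (-1.04), POLA2 (-0.83), RPA2 (-0.58), POLD2 (-0.43) and cyclin A2, CCNA2 (-0.31). RPA2, POLD2 and CCNA2 did not pass with size factors (limma adjusted p = 0.0729, 0.0516 and 0.175). In each of the lists on histone supply and DNA replication, fewer genes were called higher with any library left out. The same was so over all tested genes. Such fits leave a single library in a group, so their counts are not given for the lists.

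**Figure D5:**
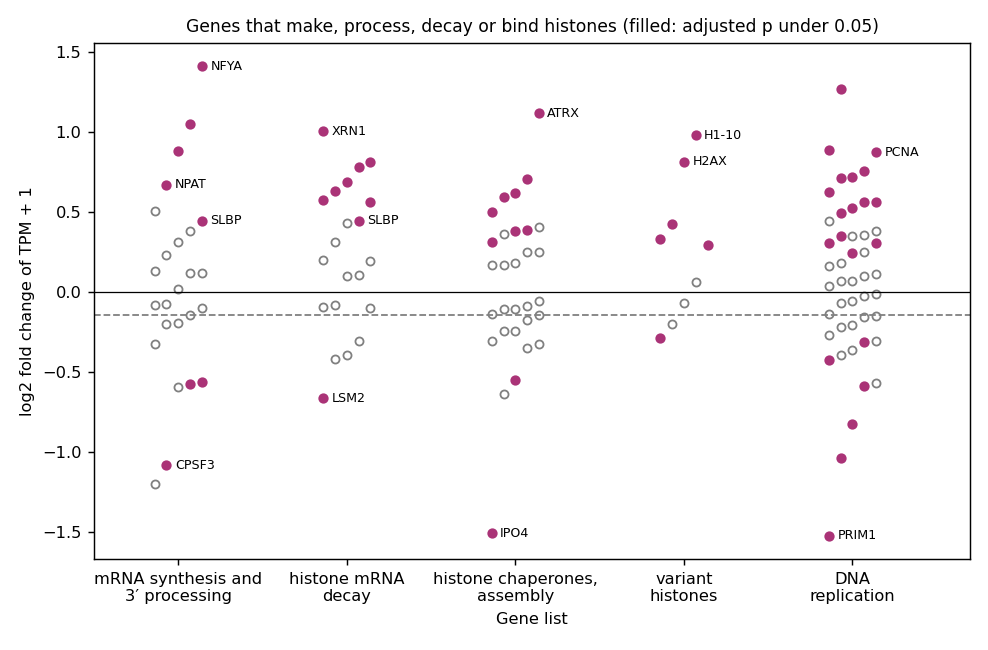
Log2 fold change of each tested gene in 5 lists on histone supply and DNA replication (filled points for adjusted p under 0.05, dashed line for the median of all tested genes, -0.14). Filled points lie on both sides of 0 in every list, from IPO4 and PRIM1 near -1.5 to NFYA at 1.41.

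The cells were checked by markers. The 9 plasma cell markers were all tested and summed to 9863 to 10561 TPM across libraries, with 1 higher (SLAMF7) and 4 lower (PRDM1, IRF4, XBP1 and MZB1); with size factors 1 was higher and 2 lower. Markers of B cells summed to 79.8 and 75.2 TPM with DMSO and to 65.3 and 60.8 TPM with periplocin, nearly all of it CIITA, FCER2 and BCL6. Of these CIITA was called lower (limma adjusted p = 0.0325), though not with size factors (0.115), and MS4A1 and PAX5 were under 0.1 TPM. Those of T and NK cells summed to 9.57 to 17.3 TPM, with CD3D and CD2 listed at 0 and NKG7 called lower (not with size factors), those of myeloid cells to 0.704 to 1.74 TPM, and those of stromal cells to 3.42 to 5.02 TPM. The libraries held 12357 to 12915 genes at 1 TPM or more, fewer in both periplocin libraries than in both DMSO libraries. The part of these differences in the histone values was not tested.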

How the data were processed

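The authors deposited 1 table of TPM values for 37247 gene rows and 4 libraries, with the same sum in each library. The submitters' processing notes name GRCh38 and DESeq2 without a role. Aligner, quantifier and annotation: not given in the sources used here. TPM keeps no depth, so no counting interval or floor could be given. Columns written PP were read as periplocin.

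Identifiers were matched to current symbols by a table of gene names (34436) or by older symbols in RefSeq (24), and 2627 had no symbol. Positions and gene models came from GENCODE 29 on GRCh38, and promoters from RefSeq (GRCh38.p14). From the deposited values, the 12947 genes at 1 TPM or more in 2 or more libraries were compared by limma-trend (limma 3.58.1, R 4.3.3) on log2(TPM + 1), two-sided, with Benjamini-Hochberg adjustment; fold changes on that scale understate changes of low genes. The fit had 2 residual and 4.01 prior degrees of freedom. It was run on simulated data with normal noise and no steps, where changes were placed only in genes above a set mean level. Changes at the level of the lowest members were thus not simulated. Tables and plots used Python 3.11.15, pandas 2.3.3, numpy 2.4.6 and matplotlib 3.10.9.

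The members, lists and tests were chosen with earlier results of these data known. With values in every library the text names called members, the 2 highest of each class, the 6 largest fold changes in each direction and members at the filter's limit. Of the other lists it names up to 6 called genes in each direction, and SLBP, NPAT, ERI1, UPF1, PCNA and CASP8AP2. Other members, markers and neighbouring genes were named after their values were seen. ARS2, another name of SRRT, was counted once. Alternatives covered the pseudocount, the filter, the scaling, the intensity trend, the replicate block and each library left out; leaving out a library for the class sums, and rescaling for the counts of members whose groups did not overlap, were added after the data were seen.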

Additional observations from a re-analysis of the deposited data

How the results depend on the processing

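Of the 33 members, 22 kept the sign of their fold change under all 12 alternatives that tested them. The count of members called higher, 3 as reported, was 0 with no filter, 0 without the intensity trend, 5 with the replicate block and 0 to 1 with a library left out. The count called lower, 1 as reported, was 0 with no filter, 0 at a TPM of at least 5 (where H2AC17 was not tested), 0 with quantile normalization, 2 with the replicate block and 0 to 2 with a library left out. Where no member was called with no filter, limma gave 5 members an unadjusted p under 0.05. Over all genes 1352 were higher and 2443 lower as reported, 613 and 1026 with no filter, and 1685 and 2876 with the replicate block. They were 2117 and 1553 with median centring, 2012 and 1745 with size factors, 1757 and 1758 with quantile normalization, and 876 and 1932 without the trend. With a library left out they ranged from 0 to 522 and from 0 to 1142. The causes of these moves were not tested.

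The replicate numbers were treated as names only. Over all tested genes, the deviations of the libraries numbered 1 from their group means correlated at r = 0.0324 between the groups. In groups of 2 those of the libraries numbered 2 mirror them, so this is 1 value. Pairing in single genes was not tested. With the replicate block H2BC5 (limma adjusted p = 0.0207), H3C13 (0.0414) and H2BC17 (0.0284) joined the calls. H2BC17 was a member through its DMSO libraries alone, so the limit itself made it lie below. Its place among the members called lower with the block is thus no support for a change. Over the alternatives the log2 fold change ranged from 0.51 to 0.80 for H2BC12 (adjusted p 0.00373 to 0.114), 0.34 to 0.58 for H1-2 (0.0114 to 0.144), 0.68 to 1.57 for H2BC11 (0.0198 to 0.142) and -2.11 to -1.15 for H2AC17 (0.0271 to 0.137).

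Signs turned under scaling for H2AC16 (0.045 with median centring, 0.11 with quantile normalization), H2BC21 (0.018 with size factors, 0.088 with median centring, 0.23 with quantile normalization) and UPF1 (0.062 with size factors, 0.082 with median centring). With a library left out the fold change ran from -0.59 to 1.20 for H2AC12, -0.93 to 0.70 for H2AC16, -1.34 to 0.29 for H2AC4, -0.77 to 1.06 for H2BC10, -0.25 to 0.77 for H2BC15, -0.19 to 0.036 for H2BC21, -0.99 to 0.32 for H2BC3, -1.14 to 0.58 for H3C1, -0.39 to 1.14 for H3C4, -0.34 to 1.31 for H4C15, -0.35 to 1.10 for H4C8 and -0.058 to 0.27 for ERI1.

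The difference between the groups' summed TPM, 90.1 over all members, was 128 with size factors; for H1 it was 24.8 and 33.3, for H2A -8.46 and -0.553, for the 31 members without H2BC12 and H1-2 11.2 and 27.8, for H2B 68.6 and 84.3, for H3 3.29 and 4.48, and for H4 1.99 and 6.02. The H3 difference was 0.393 with no filter, and the H4 difference ran from -1.85 to 5.83 with a library left out. Depth is unknown, so low members are limited by the steps of their values.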
